A study of Cricetulus griseus with 16 samples.

Results

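Dual-specificity MAP kinase phosphatases remove phosphate from both the threonine and the tyrosine in the activation loop of MAP kinases and thereby switch these kinases off. Several of their genes are themselves transcribed after growth factors or stress, so that the enzymes act as negative feedback on the ERK, JNK and p38 pathways. The family members followed here were 10 genes, matched by gene name with upper and lower case ignored. They comprise the inducible nuclear enzymes Dusp1, Dusp2, Dusp4 and Dusp5, the cytoplasmic ERK-selective Dusp6 and Dusp7, the JNK- and p38-selective Dusp8, Dusp10 and Dusp16, and the atypical Dusp14, which lacks the MAP kinase binding domain of the others. All 10 were found among the 20824 genes listed, and 9 of them had enough counts to be tested in each of the 6 comparisons made. Dusp2 was the exception and is described first among the members.

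RNA was sequenced from cultures of CHO, an established line from Chinese hamster ovary, to compare how heat of different strength and length changes the transcriptome. The 4 groups were cells kept at 37 °C without treatment, cells heated to 40 °C for 1 h, cells heated to 40 °C for 6 h, and cells heated to 42.5 °C for 1 h. Each group had 4 cultures, lettered A to D and described by the authors as biological repeats, and nothing in the labels says that cultures sharing a letter were handled together. Libraries held from 10504192 to 14668365 counts in total. Expression is given in CPM, counts relative to library size scaled by TMM. A floor of 3 counts stood for 0.204 to 0.296 CPM, and this floor takes in counting error alone.

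The library of replicate D at 37 °C stood apart from its group. Across 10565 genes, its log2 CPM correlated with those of the other control libraries at Pearson's r between 0.974 and 0.976, whereas the lowest r within any group without it was 0.993. Genes are not independent replicates in these correlations. Its level lay outside the range of replicates A, B and C for 83.7% of all genes and for 4 of the 9 tested members, below it for Dusp7, Dusp8 and Dusp16 and above it for Dusp10. In the heated groups, a library was the highest of its group for 19.8% to 29.4% of all genes. It was the lowest for 20.7% to 28.2%, so that such a position is frequent for any library. The authors' own gene table leaves this library out, and it is left out here unless all 4 control libraries are named.

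Marker genes were checked against the label of the cells. Vim, a mesenchymal intermediate filament gene, had group means between 2010 and 2325 CPM, and S100a6 and Fn1 were also abundant, while Col1a1, Col1a2 and Thy1 held at most 4 counts in any library. Of 5 granulosa cell markers, Foxl2, Fshr and Cyp19a1 had 0 counts in all 16 libraries, and the 5 summed to between 3.55 and 8.63 CPM, with Amh as the most abundant. Amh had a mean of 2.72 CPM at 42.5 °C and of 4.84 CPM at 40 °C (6 h). Between these groups, 1 of the 2 tested granulosa markers was called lower at 42.5 °C by the rule given below. Its log2 difference was -0.83, and 5.72% of all genes were called lower there. Against 37 °C, 0 of the 2 were called in any heated group. Of the epithelial markers, Cdh1 was the most abundant and the 3 found summed to at most 4.14 CPM, with Epcam and Krt19 at no more than 1 count. The 3 leukocyte markers found summed to at most 0.0969 CPM and the 4 endothelial markers to at most 0.396 CPM.

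A gene was called when the adjusted p of edgeR's quasi-likelihood test was under 0.05 and its fold change was at least 1.5 either way. After 1 h at 40 °C, 2 of the 9 tested members, Dusp1 and Dusp8, were called higher than at 37 °C, and 0 were called lower. Over all 10494 genes tested, 0.276% were called higher and 0.0572% lower. An unadjusted p under 0.05 was reached by 5 of the 9 members and by 14.8% of all genes, and DESeq2 called 1 of the members, Dusp8. The heated and control libraries did not overlap for 3 of the 9, Dusp1, Dusp8 and Dusp16, each higher, against 13.5% of all genes. With all 4 control libraries, edgeR called 0 of the members, and over all genes the number called dropped from 35 to 3.

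After 6 h at 40 °C, Dusp5 was called lower than at 37 °C and 0 of the 9 members were called higher, where 1.66% of 10499 genes were called lower and 1.45% higher. An unadjusted p under 0.05 was reached by 5 of the 9 members and by 41.0% of all genes, and DESeq2 also called Dusp5 alone. The groups did not overlap for 3 of the 9 members, with Dusp5 lower and Dusp10 and Dusp16 higher, which is close to the share over all genes, 36.2%. With all 4 control libraries, Dusp5 was again the 1 member called.

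After 1 h at 42.5 °C, Dusp1, Dusp8 and Dusp16 were called higher than at 37 °C and 0 members were called lower. Of 10470 genes, 2.83% were called higher and 4.68% lower. An unadjusted p under 0.05 was reached by 6 of the 9 members and by 50.7% of all genes. DESeq2 called the same 3 genes, and so did edgeR with all 4 control libraries. The groups did not overlap for 4 of the 9 members, Dusp1, Dusp4, Dusp8 and Dusp16, each higher, again close to the share over all genes, 46.0%. The median log2 fold change of the 9 members was 0.21 at 40 °C (1 h), -0.04 at 40 °C (6 h) and 0.21 at 42.5 °C, with medians of 0.00 over all tested genes in each. The 3 comparisons share the same control libraries, so that their values are not independent of each other.

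**Figure D1:**
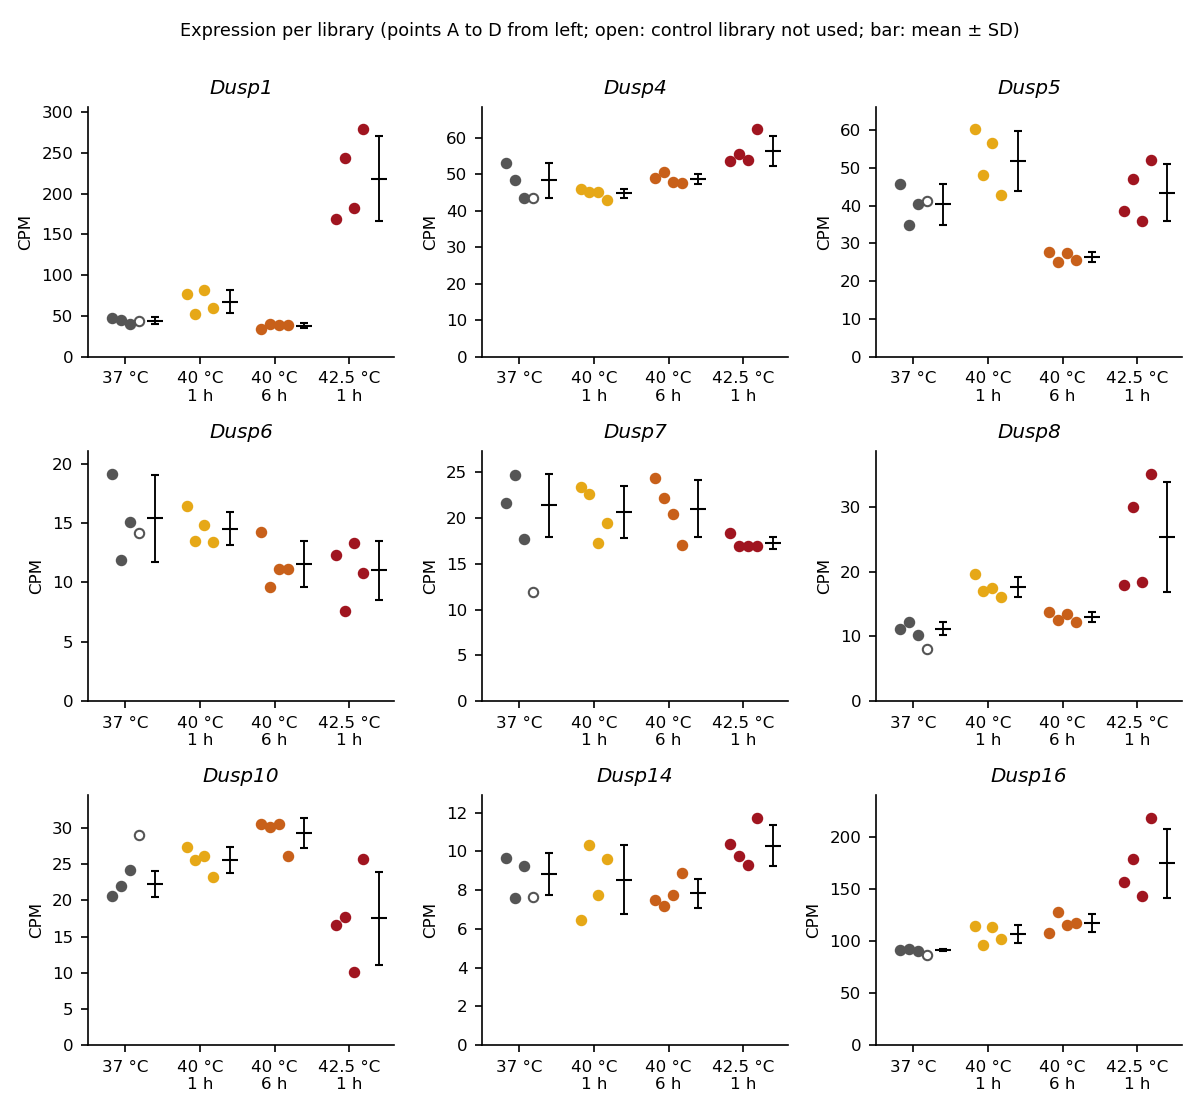
Expression of the 9 tested MAP kinase phosphatase genes in CPM (vertical axis, from 0) for each library of the 4 groups (horizontal axis), where points stand for replicates A to D from left to right, the open point is 37 °C replicate D, which is not part of the mean, and bars give the mean ± SD. Dusp1 lay between 168 and 279 CPM at 42.5 °C, above every library of the other groups, and Dusp5 between 25.1 and 27.7 CPM at 40 °C (6 h), below them all.

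Dusp2 (ENSCGRG00001018898), which encodes a nuclear phosphatase best known from activated immune cells, had 0 counts in 15 libraries and 1 count in replicate C at 42.5 °C. It was below the floor of 3 counts in each library, so that no more than 0.296 CPM can be stated for it and no fold change was computed.

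Dusp1 (ENSCGRG00001019246) is an immediate early gene, and its nuclear product, also known as MKP1, dephosphorylates JNK and p38 as well as ERK. At 37 °C it was at 48.0 CPM in replicate A, 45.2 in B and 40.3 in C, with 44.4 CPM in the separate replicate D. After 1 h at 40 °C it was at 77.2, 52.0, 81.9 and 59.9 CPM in replicates A to D. These 4 libraries all lay above the 3 controls, but replicates A and C were well above them whereas B was near the highest control. After 6 h at 40 °C it was at 34.3, 40.6, 39.0 and 39.4 CPM, a range that overlapped with that of the controls in replicate B. After 1 h at 42.5 °C it was at 168, 244, 183 and 279 CPM, so that the lowest of these libraries lay above the highest of all other groups, with replicates B and D higher than A and C. In RNA from whole cultures, fewer cells that express a gene and less of its RNA per cell cannot be told apart.

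Against 37 °C, with a mean of 44.5 ± 3.92 CPM (SD, n = 3), Dusp1 was 1.52-fold higher at 40 °C (1 h), a log2 fold change of 0.60 (adjusted p = 0.0200, SE 0.12). At 42.5 °C, with a mean of 218 ± 51.8 CPM (SD, n = 4), it was 4.88-fold higher (95% interval 3.96 to 6.02), a log2 fold change of 2.29 (adjusted p = 1.49e-08, SE 0.14), which ranked 34 from the top among 10470 genes. At 40 °C (6 h) its log2 fold change was -0.22 (adjusted p = 0.0331, SE 0.07), under the fold change of 1.5. The direct comparisons gave the order of the groups: 42.5 °C was above 40 °C (1 h) by 1.68 (adjusted p = 7.45e-07, SE 0.15), and 40 °C (6 h) was below 40 °C (1 h) with a log2 difference of -0.82 (adjusted p = 0.00019, SE 0.11). The log2 difference between 42.5 °C and 40 °C (6 h) was 2.50 (adjusted p = 1.74e-10, SE 0.12).

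The call of Dusp1 at 40 °C (1 h) was held in 7 of 14 alternative fits, with an adjusted p between 1.41e-05 and 0.241 over them. It was lost with DESeq2's Wald test (log2 fold change 0.61, adjusted p = 0.0543), in 1 fit over all groups (0.60), with all 4 control libraries (0.61, adjusted p = 0.241), without 37 °C replicate B (0.62) or C (0.54), and without replicate A (0.53) or C (0.50) of the heated group. Dnajb1, a heat shock co-chaperone gene looked up after the values of Dusp1 had been seen, also had its higher levels in replicates A and C at 40 °C (1 h), with 125, 52.9, 113 and 59.6 CPM in replicates A to D. At 42.5 °C it was at 343, 465, 242 and 526 CPM, again with the higher levels in the replicates where Dusp1 was higher, B and D, and it was between 26.3 and 30.2 CPM in the 3 control libraries. At 40 °C (6 h), where the log2 fold change of Dusp1 was -0.22, Dnajb1 was above all 3 of them, at 39.9, 54.5, 41.6 and 42.5 CPM in replicates A to D. Hspb1, a small heat shock protein gene, was at 128, 87.9, 150 and 100 CPM in replicates A to D at 40 °C (1 h). At 42.5 °C it was at 357, 525, 264 and 555 CPM. At 40 °C (6 h) Hspb1 was at 111, 205, 207 and 99.8 CPM, where Dusp1 was lowest in replicate A. In the controls it was between 49.5 and 56.7 CPM in replicates A to C and at 103 CPM in the separate replicate D. The part of Dnajb1 and Hspb1 in the result for Dusp1 was not tested.

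Dusp4 (ENSCGRG00001022778) encodes another inducible nuclear phosphatase, which acts on ERK and JNK. It was at 53.1, 48.4 and 43.5 CPM in replicates A to C at 37 °C and at 53.5, 55.5, 53.8 and 62.2 CPM in replicates A to D at 42.5 °C. The 42.5 °C libraries all lay above the controls, although A and C exceeded the highest control by little. The log2 fold change of 0.21 (adjusted p = 0.0264, SE 0.07) stayed under the fold change of 1.5, and with all 4 control libraries the adjusted p was 0.0723 (lowest 0.00996 and highest 0.133 among the alternatives). The 8 libraries at 40 °C ranged from 43.0 to 50.5 CPM, with log2 fold changes of -0.11 (adjusted p = 0.458, SE 0.07) at 1 h and 0.00 (adjusted p = 0.98, SE 0.07) at 6 h.

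Dusp5 (ENSCGRG00001006024) encodes a nuclear phosphatase selective for ERK. At 37 °C it was at 45.7, 34.9 and 40.4 CPM in replicates A to C, with 41.3 CPM in the separate replicate D. After 6 h at 40 °C it was at 27.7, 25.1, 27.5 and 25.7 CPM, so that all 4 libraries lay close together and below every library of the other groups. After 1 h at 40 °C it was at 60.2, 48.0, 56.7 and 42.7 CPM, of which replicate D lay within the range of the controls. At 42.5 °C it was at 38.6, 47.0, 35.9 and 52.1 CPM, where A and C lay within the range of the controls and B and D above it.

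Dusp5 thus had a mean of 40.3 ± 5.41 CPM (SD, n = 3) at 37 °C and 26.5 ± 1.303 CPM (SD, n = 4) at 40 °C (6 h), a log2 fold change of -0.61 (adjusted p = 6.2e-05, SE 0.08). The value lay near the fold change of 1.5, and the call was lost without 37 °C replicate A (-0.50) or without replicate B at 6 h (-0.58), with the adjusted p no higher than 0.00511 in any of the 14 alternatives. At 40 °C (1 h) the log2 fold change was 0.37 (adjusted p = 0.112, SE 0.11), and at 42.5 °C it was 0.10 (adjusted p = 0.476, SE 0.11). The value at 40 °C (1 h) was called in 0 of 14 alternatives. Its adjusted p ran from 2.01e-05 with the replicate letter as a block (0.45) to 0.495 with all 4 control libraries (0.36), and was 0.0338 with DESeq2's Wald test. Between 6 h and 1 h at 40 °C the log2 difference was -0.97 (adjusted p = 8.33e-06, SE 0.09), which ranked 20 from the bottom among 10439 genes. The difference between 42.5 °C and 40 °C (6 h) was 0.71 (adjusted p = 1.7e-05, SE 0.10), and both of these differences were called in all 14 of their alternatives.

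Dusp6 (ENSCGRG00001011335) and Dusp7 (ENSCGRG00001014025) encode cytoplasmic phosphatases selective for ERK, and Dusp6 is a feedback gene of the ERK pathway. Dusp6 was at 19.2, 11.9 and 15.1 CPM in replicates A to C at 37 °C and at 12.3, 7.60, 13.3 and 10.8 CPM in replicates A to D at 42.5 °C. The control libraries were spread widely, with A highest and B lowest, and the groups overlapped. The log2 fold change at 42.5 °C was -0.49 (adjusted p = 0.0262, SE 0.17) and at 40 °C (6 h), where the libraries ranged from 9.58 to 14.2 CPM, it was -0.43 (adjusted p = 0.0346, SE 0.15), neither of them called. Without 37 °C replicate B both were called lower (-0.65 and -0.59), and without replicate C at 42.5 °C so was the former (-0.59). Without 37 °C replicate A they were smaller, at -0.29 and -0.23, with the highest adjusted p among the alternatives, 0.2 and 0.3. At 40 °C (1 h) Dusp6 ranged from 13.4 to 16.4 CPM, with a log2 fold change of -0.08 (adjusted p = 0.827, SE 0.13).

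Dusp7 was at 21.7, 24.7 and 17.8 CPM in replicates A to C at 37 °C, and the separate replicate D was lower, at 11.9 CPM. It was between 17.3 and 23.4 CPM at 40 °C (1 h) and between 17.1 and 24.4 CPM at 40 °C (6 h), both overlapping with the controls. At 42.5 °C the libraries lay close together, at 18.3, 17.0, 17.0 and 17.0 CPM in replicates A to D, near the lowest control. The log2 fold change there was -0.32 (adjusted p = 0.0184, SE 0.10), under the fold change of 1.5, and with all 4 control libraries it was -0.14 (adjusted p = 0.658, the highest among the alternatives, with 0.00244 as the lowest). At 40 °C it was -0.05 (adjusted p = 0.895, SE 0.12) at 1 h and -0.04 (adjusted p = 0.828, SE 0.12) at 6 h, and with all 4 control libraries both were above 0, at 0.12 and 0.13.

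Dusp8 (ENSCGRG00001018480), selective for JNK and p38, was at 11.1, 12.3 and 10.3 CPM in replicates A to C at 37 °C and at 8.10 CPM in the separate replicate D. After 1 h at 40 °C it was at 19.7, 17.1, 17.5 and 16.1 CPM in replicates A to D, and after 6 h at 13.9, 12.6, 13.5 and 12.2 CPM. All libraries at 1 h lay above all controls and above all libraries at 6 h, while the lowest library at 6 h was level with the highest control. At 42.5 °C it was at 17.97, 29.99, 18.5 and 35.2 CPM, where replicates A and C fell within the range seen at 40 °C (1 h) and B and D lay far above it.

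The log2 fold change of Dusp8 against 37 °C was 0.65 (adjusted p = 0.0035, SE 0.10) at 40 °C (1 h) and 1.18 (adjusted p = 0.000224, SE 0.20) at 42.5 °C, a 2.27-fold rise (95% interval 1.69 to 3.04). At 40 °C (6 h) it was 0.21 (adjusted p = 0.129, SE 0.10). With all 4 control libraries the value at 40 °C (1 h) was 0.75 and the call was lost (adjusted p = 0.114, the highest over its alternatives, with 2.99e-05 as the lowest). The call was also lost in 1 fit over all groups, where the log2 fold change was 0.65 (adjusted p = 0.0896). At 42.5 °C Dusp8 was called in all 14 alternatives. Between 42.5 °C and 40 °C (1 h) the log2 difference was 0.53 (adjusted p = 0.0241, SE 0.17), short of the fold change of 1.5, and it passed without replicate A at 40 °C (0.59), or without replicate A (0.67) or C (0.66) at 42.5 °C. Without replicate D at 42.5 °C it was 0.32, and the adjusted p among the alternatives lay between 0.0014 and 0.094. Between 6 h and 1 h at 40 °C the log2 difference was -0.44 (adjusted p = 0.00328, SE 0.09), and between 42.5 °C and 40 °C (6 h) it was 0.97 (adjusted p = 0.000213, SE 0.17).

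Dusp10 (ENSCGRG00001018543), a phosphatase of JNK and p38 found in both nucleus and cytoplasm, was at 20.6, 22.0 and 24.2 CPM in replicates A to C at 37 °C and at 29.1 CPM in the separate replicate D. After 6 h at 40 °C it was at 30.5, 30.1, 30.5 and 26.2 CPM in replicates A to D, and at 42.5 °C at 16.5, 17.7, 10.1 and 25.8 CPM. The 6 h libraries all lay above the 3 controls, but replicate D at 37 °C was above the lowest of them. The 42.5 °C libraries were widely spread, with A, B and C below and D above all 3 controls, and all lay below those of 40 °C (6 h). At 40 °C (1 h) Dusp10 ranged from 23.2 to 27.4 CPM, with a log2 fold change of 0.21 (adjusted p = 0.244, SE 0.08).

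At 40 °C (6 h) the log2 fold change of Dusp10 was 0.40 (adjusted p = 0.00183, SE 0.08), under the fold change of 1.5, and with all 4 control libraries it was 0.29 (adjusted p = 0.123, with 0.000169 as the lowest over all alternatives). At 42.5 °C it was -0.33 (adjusted p = 0.166, SE 0.19), and it was called lower at -0.59 without replicate D of that group. It was also called at -0.59 with the replicate letter as a block, which is not a separate result. In that fit replicate D at 42.5 °C has no control of its letter, so that it adds nothing to the fold change. Without replicate C at 42.5 °C the log2 fold change was -0.14, with an adjusted p of 0.431, the highest among the alternatives. The difference between 42.5 °C and 40 °C (6 h) was -0.73 (adjusted p = 0.00152, SE 0.16), called lower. It lost its call without replicate C at 42.5 °C (-0.55). Against 40 °C (1 h) the log2 difference at 42.5 °C was -0.54 (adjusted p = 0.0221, SE 0.17), short of a fold change of 1.5, and without replicate D at 42.5 °C it was -0.79 and called, whereas without replicate C it was -0.35. The adjusted p among the alternatives lay between 0.000251 and 0.103, the latter by DESeq2.

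Dusp16 (ENSCGRG00001017988), which acts on JNK and p38, was at 91.0, 92.7 and 90.5 CPM in replicates A to C at 37 °C, with 86.7 CPM in the separate replicate D. It was at 114, 95.9, 114 and 102 CPM in replicates A to D at 40 °C (1 h), at 107, 128, 115 and 118 CPM at 40 °C (6 h), and at 157, 179, 144 and 219 CPM at 42.5 °C. Each heated library was above every control, the groups at 40 °C overlapped with each other, and all libraries at 42.5 °C lay above those at 40 °C. The log2 fold change was 0.22 (adjusted p = 0.0729, SE 0.06) at 40 °C (1 h), 0.36 (adjusted p = 0.000252, SE 0.06) at 40 °C (6 h) and 0.93 (adjusted p = 3.62e-06, SE 0.10) at 42.5 °C, of which the last, a 1.90-fold rise (95% interval 1.64 to 2.21), was called.

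That call of Dusp16 was made in all 14 alternatives. Between 42.5 °C and 40 °C (1 h) the log2 difference was 0.71 (adjusted p = 4.96e-05, SE 0.10), and without replicate D at 42.5 °C it came to 0.58, just short of a fold change of 1.5. Between 42.5 °C and 40 °C (6 h) it was 0.57 (adjusted p = 9.73e-05, SE 0.09), just short of that fold change, and it passed without replicate B at 6 h (0.62) or without replicate A (0.62) or C (0.65) at 42.5 °C, while the lowest value with a single library left out was 0.44. Between 6 h and 1 h at 40 °C the log2 difference was 0.14 (adjusted p = 0.142, SE 0.06), so that the order of these groups was not settled.

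Dusp14 (ENSCGRG00001010127), the small atypical phosphatase, was at 9.68, 7.59 and 9.23 CPM in replicates A to C at 37 °C, and its libraries in the heated groups ranged from 6.46 to 11.7 CPM. The groups overlapped with the controls in each comparison. The log2 fold changes were -0.05 (adjusted p = 0.917, SE 0.15) at 40 °C (1 h), -0.17 (adjusted p = 0.311, SE 0.12) at 40 °C (6 h) and 0.22 (adjusted p = 0.15, SE 0.12) at 42.5 °C. It had between 85 and 149 counts per library, and the 95% interval at 40 °C (1 h), from -0.37 to 0.27, reached a fold change of 1.5 on neither side. Its log2 difference between 42.5 °C and 40 °C (6 h) was 0.39 (adjusted p = 0.00887, SE 0.11), under the fold change of 1.5.

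**Figure D2:**
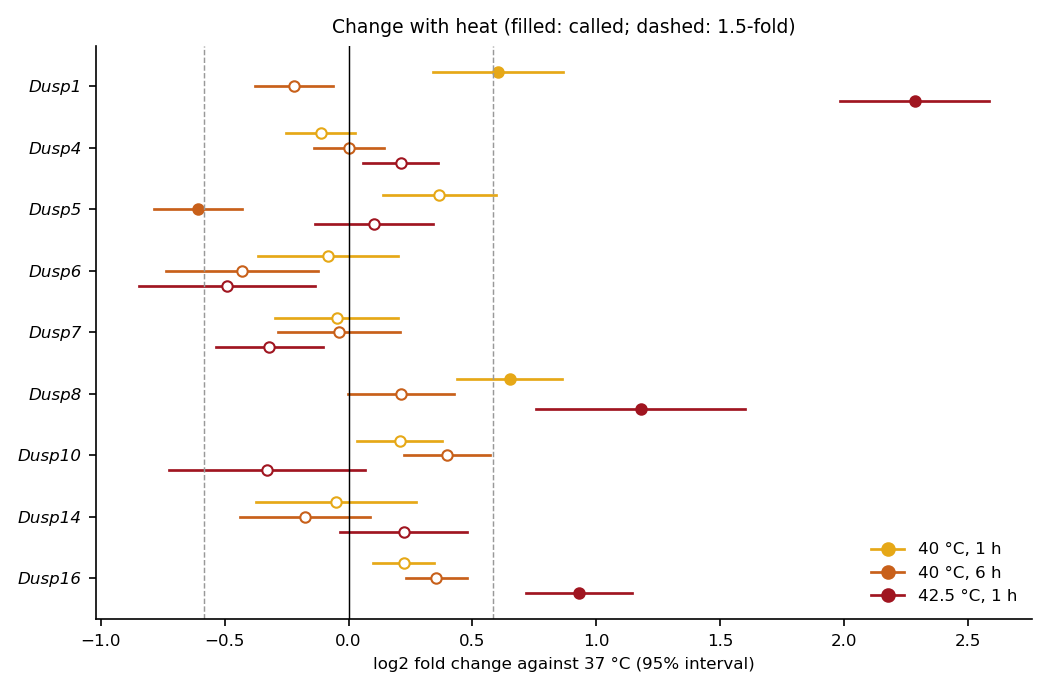
Log2 fold change of the 9 tested MAP kinase phosphatase genes against 37 °C (horizontal axis) for each heated group, by gene (vertical axis), where lines give 95% intervals, filled points are called genes, and dashed lines mark a fold change of 1.5. Dusp1 at 42.5 °C lay farthest from 0, with a log2 fold change of 2.29, and Dusp5 was the 1 member called lower, with -0.61 at 40 °C (6 h).

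The heated groups were also compared directly, with the same thresholds for a call. Between 6 h and 1 h at 40 °C, Dusp1 and Dusp5 were called lower at 6 h and 0 members higher, where 0.728% of 10439 genes were called lower and 0.556% higher. DESeq2 called the same number, 2, and 7 of the 9 members had an unadjusted p under 0.05, beside 32.3% of all genes. Between 42.5 °C and 40 °C (1 h), Dusp1 and Dusp16 were called higher at 42.5 °C and 0 members lower, against 1.75% higher and 3.51% lower over 10441 genes. DESeq2 again called 2, and 8 of the 9 members had an unadjusted p under 0.05, beside 45.9% of all genes. Between 42.5 °C and 40 °C (6 h), Dusp1, Dusp5 and Dusp8 were called higher and Dusp10 lower, against 2.53% and 5.72% over 10427 genes. DESeq2 called the same 4 members, and 8 of the 9 had an unadjusted p under 0.05, beside 53.9% of all genes. Each pair of these comparisons shares a heated group.

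Variation between replicates differed among the members. At 42.5 °C the coefficient of variation over 4 libraries was 23.7% for Dusp1, 33.7% for Dusp8, 36.8% for Dusp10 and 18.8% for Dusp16, while it was 3.95% for Dusp7. In the 3 control libraries it ran from 1.29% for Dusp16 to 23.7% for Dusp6. In a count chosen after the values were seen, replicate D at 42.5 °C had the highest level of its group for 7 of the 9 members, where 29.4% of all 10565 genes were highest in that library. Replicate A at 40 °C (1 h) was likewise the highest for 7 of the 9 members, against 25.0% of all genes, and replicate D of that group was the lowest for 5, against 27.6%. At 40 °C (6 h) replicate A was the highest for 5, against 27.2%. The part of these libraries in the results was not tested beyond leaving each library out.

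The genes with the most similar profiles were taken for each member called against 37 °C, by the smallest root mean square difference in log2 CPM, each gene set relative to its own mean at 37 °C, over 15 libraries. They were picked for likeness over these same libraries. Fold changes close to those of the member therefore follow from the choice and are not a separate result. For Dusp1 these were Nuak2 (0.17), Csrnp1 (0.30) and Hbegf (0.33), with log2 fold changes of 2.23, 2.18 and 1.72 at 42.5 °C, of 0.63, 0.15 and 0.37 at 40 °C (1 h) and of -0.14, -0.34 and -0.27 at 40 °C (6 h). For Dusp8 they were Tiparp (0.19), Cdr2 (0.24) and Dedd2 (0.24), with log2 fold changes of 0.68, 0.47 and 0.81 at 40 °C (1 h), of 0.25, 0.13 and 0.23 at 40 °C (6 h) and of 1.23, 0.88 and 0.87 at 42.5 °C. For Dusp5 they were Lif (0.14), Vegfa (0.22) and Nab2 (0.23), with log2 fold changes of -0.68, -0.52 and -0.59 at 40 °C (6 h). In the other groups their log2 fold changes were 0.42, 0.05 and 0.08 at 40 °C (1 h), where Dusp5 was at 0.37, and -0.10, 0.33 and -0.15 at 42.5 °C, where Dusp5 was at 0.10. For Dusp16 they were Ociad2 (0.08), Oser1 (0.10) and 4930453N24Rik (0.10), with log2 fold changes of 0.82, 0.88 and 0.90 at 42.5 °C, of 0.13, 0.29 and 0.19 at 40 °C (1 h) and of 0.32, 0.32 and 0.26 at 40 °C (6 h).

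Other genes of the pathway were followed as lists. Of 16 further genes of the DUSP family, 14 were found and 5 could be tested, and 1 of the 5 was called against 37 °C, lower at 40 °C (6 h), beside 1.66% of all genes. Dusp15, an atypical member, had a mean of 22.5 ± 0.656 CPM (SD, n = 3) at 37 °C and of 14.5 ± 1.90 CPM (SD, n = 4) at 40 °C (6 h), a log2 fold change of -0.64 (adjusted p = 0.000139, SE 0.10). Dusp11, Dusp12, Dusp18 and Dusp19 were not called against 37 °C, and Dusp9, Dusp21, Dusp22, Dusp23 and Dusp26 had 0 counts in all libraries. The list's medians were -0.06, -0.01 and 0.04 in the short and the long 40 °C groups and at 42.5 °C.

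Of 26 MAP2K and MAP3K genes, which act upstream, 20 were tested. Against 37 °C, 1 of the 20 was called lower at 40 °C (6 h), beside 1.66% of all genes, and 2 of the 20 at 42.5 °C, beside 4.68%, with 0 called higher in either. These were Map3k6 at 40 °C (6 h), with a log2 fold change of -0.61 (adjusted p = 1.91e-05, SE 0.07), and Map3k11 with -0.82 (adjusted p = 5.01e-07, SE 0.07) and Taok2 with -1.06 (adjusted p = 3.94e-09, SE 0.06) at 42.5 °C. At 40 °C (1 h) 0 were called by either tool, with 3 of the 20 at an unadjusted p under 0.05, beside 14.8% of all genes. That p was reached by 9 of the 20 at 40 °C (6 h), beside 41.0%, and by 13 at 42.5 °C, beside 50.7%. The medians of this list were -0.01, -0.05 and -0.04 in the short and the long 40 °C groups and at 42.5 °C.

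Of 10 kinases activated by MAP kinases, 8 were tested, and of 8 other phosphatases that act on MAP kinases, 5 were tested. Against 37 °C, edgeR and DESeq2 called 0 genes of either list, where the shares of all genes that edgeR called higher and lower were 0.276% and 0.0572%, 1.45% and 1.66%, and 2.83% and 4.68% in the order above. An unadjusted p under 0.05 was reached by 2, 3 and 5 of the kinases and by 3, 3 and 2 of the phosphatases in the short and the long 40 °C groups and at 42.5 °C, beside 14.8%, 41.0% and 50.7% of all genes. The medians were -0.03, -0.02 and -0.11 for the kinases and 0.13, 0.22 and 0.23 for the phosphatases, beside 0.00 over all tested genes in each comparison.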

How the data were processed

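Sequencing libraries were made with the TruSeq RNA kit and read as paired ends on a NextSeq instrument. Trimming, mapping to the assembly CHOK1GS_HDv1 and counting were done by the authors in CLC Genomics Workbench, and the deposited values are whole-number read counts for each gene and library. The annotation release, the strand setting and the treatment of reads with several mapping places are not given in the sources used here. Gene lengths were not used, and levels were not compared between genes.

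Each comparison was fitted on the libraries of its 2 groups with edgeR 4.0.16 in R 4.3.3, by the quasi-likelihood test with TMM normalization and the default filter on low counts. P-values were adjusted by Benjamini-Hochberg over all genes tested, and intervals are at 95%. DESeq2 1.42.0 was the second tool. The 37 °C library left out is the one whose counts are not those in the authors' table, where it has 36 of 920 counts identical and each other library 920. No pair of replicates agreed within sampling noise (chi-square per degree of freedom at least 2.52 for each pair). Log2 CPM used a prior count of 2, and the 3 most similar genes were taken per member.

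Genes given values from the pathway lists are those called in at least 1 comparison with 37 °C. The members and the lists were chosen with earlier results of these data known. Tests were checked on simulated counts. The alternatives were DESeq2's size factors or its Wald test, a block for the replicate letter, a stricter filter of 10 counts per library, no filter, a single model of all groups, the full set of 4 control libraries, calls by adjusted p alone, and the omission of each library in turn. Promoter and protein sequences were not used here. The summary of 1 pathway list is not reported.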

Additional observations from a re-analysis of the deposited data

Results flagged for a closer look

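Each of 36 groups of 4 libraries was checked for a library far from the others, where chance picks out about 1 in 20 groups. Dusp7 in replicate A at 42.5 °C was at 18.3 CPM, while the other 3 libraries lay within 16.95 to 16.97 CPM. Dusp10 in replicate D at 40 °C for 6 h was at 26.2 CPM, below the other 3, of which the highest was at 30.5 CPM.

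Direct comparisons between heated groups picked out the following log2 differences. From 1 h to 6 h at 40 °C they were -0.82 for Dusp1 and -0.97 for Dusp5. From 40 °C to 42.5 °C at 1 h they were 1.68 for Dusp1 and 0.71 for Dusp16. From 40 °C for 6 h to 42.5 °C for 1 h they were 2.50 for Dusp1, 0.71 for Dusp5, 0.97 for Dusp8 and -0.73 for Dusp10.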

How the results depend on the processing

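The calls of Dusp1, Dusp8 and Dusp16 at 42.5 °C against 37 °C were made in all 14 alternative fits. At 40 °C for 1 h the number of members called was 2 in the report, 1 with DESeq2's Wald test (31 genes in all, against 35), 0 in 1 fit over all groups (32 genes in all), 0 with all 4 control libraries and between 1 and 2 with each library left out. At 40 °C for 6 h it was 1, and between 0 and 2 with each library left out. With adjusted p alone, which drops the fold change of 1.5, the number of members called went from 1 to 5 at 40 °C for 6 h, from 3 to 6 at 42.5 °C, from 2 to 4 between 6 h and 1 h at 40 °C, from 2 to 7 between 42.5 °C and 40 °C for 1 h, and from 4 to 8 between 42.5 °C and 40 °C for 6 h. Over all genes this rule gave 172 in place of 35, 3091 in place of 326, 4510 in place of 786, 1931 in place of 134, 3767 in place of 550 and 4904 in place of 860, in the order 40 °C for 1 h, 40 °C for 6 h and 42.5 °C against 37 °C, then the direct comparisons. At 40 °C for 1 h all 4 control libraries gave 3 genes, and leaving out single libraries gave 23 (without replicate C) to 56 (without replicate B). Other causes than the rule itself were not tested.

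Several uncalled values near 0 changed sign. With all 4 control libraries Dusp7 was at 0.12 at 40 °C for 1 h and 0.13 at 6 h, and with no filter Dusp4 was at -0.0026 at 6 h. With single libraries left out, the log2 fold change at 40 °C for 1 h ran from -0.24 to 0.12 for Dusp6, from -0.16 to 0.0693 for Dusp7 and from -0.16 to 0.0683 for Dusp14. At 40 °C for 6 h it ran from -0.0633 to 0.0810 for Dusp4 and from -0.15 to 0.0824 for Dusp7, and at 42.5 °C from -0.0012 to 0.21 for Dusp5. Between 6 h and 1 h at 40 °C it ran from -0.0619 to 0.10 for Dusp7, and between 42.5 °C and 40 °C for 6 h from -0.16 to 0.0694 for Dusp6. The cause was not tested.

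With the replicate letter as a replicate block, 4 members were called at 42.5 °C in place of 3, with Dusp10 called lower at -0.59, while the genes called in all went from 786 to 717, and the number stayed at 2 and 1 at 40 °C. With this block Dusp7 was at 0.0611 at 40 °C for 6 h and Dusp5 at -0.0022 at 42.5 °C. Against 37 °C, replicate D of a heated group has no control of its letter, so the block also takes that library out of the fold change. With replicate D at 42.5 °C left out and no block, Dusp10 was likewise called lower at -0.59, with 701 genes called in all. The part of the block itself in the call of Dusp10 was not tested. Libraries sharing a letter had a mean correlation of 0.05 over 21 pairs after subtracting group means, with 5 of them over 0.1, and those of different letters -0.02 over 63 pairs, with 11 over 0.1. A library correlated best with its own letter in 16 of 42 cases, each with 3 or 4 libraries to choose from. The letters were used as a block in an alternative alone.

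The lists of the 3 most similar genes shared between 1 and 3 genes with those given when the prior count, the control libraries or the measure was changed. At least 2 of the genes were kept in all 3 of these alternatives for Dusp5 and in 2 for Dusp1. For Dusp8 and for Dusp16 this held in 1 alternative each.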
